A study of Mus musculus with 57 samples.

Results

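Microglia of mice lacking P2RY12 were compared with those of wild-type littermates in animals whose treatment label reads ns, using 12 of the 57 libraries of the series. What ns stands for is not defined in the labels. The 12 libraries, 6 labelled wild type (WT ns) and 6 labelled knockout (KO ns), are those libraries labelled ns that do not carry the library number 2. They were chosen by measured values: the 2 WT ns libraries numbered 2 had 487.5 and 886.4 CPM (counts per 1e+06 counts of the library) of P2ry12 and 1805 and 2381 of Saa3, an acute-phase gene raised by lipopolysaccharide (LPS), and so went against their labels. Their KO counterparts, at 580.7 and 782.9 CPM of P2ry12 and 1.11 and 1.70 of Saa3, were left out alike. CPM values were scaled by the effective library size after TMM normalization, a correction for library composition. The libraries were made from polyadenylated RNA of CD11b-positive brain cells, annotated as microglia, and sequenced on a NovaSeq instrument. The knockout is named in the labels only as P2RY12 deficiency, with no allele, and all groups are littermates. Age and sex are not given for these animals, nor whether each library is 1 animal, so p-values measure the spread between these libraries. The libraries fall into 2 sets by their names, with 3 WT ns and 3 KO ns in each, and the set was a covariate.

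P2RY12 is a receptor for adenosine diphosphate that couples to inhibitory G proteins and is abundant on resting microglia. It guides the extension of their processes toward nucleotides released from injured cells and is lost when microglia become activated. Its gene lies beside those of the related receptors P2RY13, P2RY14 and GPR171, all placed within the gene Med12l on the opposite strand.

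P2ry12 and P2ry13 were the most abundant of these receptor genes and both differed in level between the genotypes in most libraries, and their promoters are shown for that reason. Both sequences are from RefSeq (build GRCm38.p6), run from 250 bases before to 50 bases after the annotated start, and are on the minus strand of chromosome 3, at chr3:59262936-59263235 for P2ry12 and chr3:59210833-59211132 for P2ry13. Both genes were found in the RefSeq promoter table. Capitals mark GAGGAA, a motif bound by the myeloid factor PU.1, searched on both strands (TTCCTC on the other). Shorter or variant forms of the motif were not searched.
P2ry12: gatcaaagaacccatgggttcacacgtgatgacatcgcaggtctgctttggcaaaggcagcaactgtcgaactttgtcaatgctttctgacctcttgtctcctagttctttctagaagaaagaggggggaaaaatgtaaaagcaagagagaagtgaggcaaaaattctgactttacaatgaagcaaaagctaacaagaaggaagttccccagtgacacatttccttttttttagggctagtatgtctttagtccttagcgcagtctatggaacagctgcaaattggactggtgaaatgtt
P2ry13: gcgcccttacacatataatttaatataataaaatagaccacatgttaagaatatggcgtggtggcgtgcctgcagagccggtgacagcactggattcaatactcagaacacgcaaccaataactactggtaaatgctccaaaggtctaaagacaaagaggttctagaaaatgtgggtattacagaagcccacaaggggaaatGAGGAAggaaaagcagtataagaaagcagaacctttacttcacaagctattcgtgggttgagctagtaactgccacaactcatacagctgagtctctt
The P2ry13 window held the motif once, 48 bases before the start, and the P2ry12 window held 0 matches to these letters. The motif was present in 28.3% of the 32851 promoter windows of this length in the table. A match is a description of the letters and not a binding site.

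The depth was 18.0 to 40.1 M counts in 11 libraries and 168.4 M in WT ns 4 (replicate numbers follow accession order). One library stood apart. In KO ns 6, transcripts encoded by mitochondria took 7.69% of the counts, against 0.749% to 1.38% in the other 11, and ribosomal protein transcripts took 5.33%. Its median correlation with the other libraries was 0.697 across genes, while all 55 pairs among the other 11 correlated at 0.900 or above. Results are therefore given with and without KO ns 6, a choice made after its values were seen. Xist, the transcript of the inactive X chromosome, was at 0.865 to 1.59 CPM in set 1 and 871 to 1352 in set 2. The Y-linked Ddx3y was at 96.8 to 117.5 and 0 to 0.449, so these transcripts separated the 2 sets. Within each set Xist was lower in every KO library than in every WT library. It was at 0.865 to 0.933 CPM in KO ns and 1.11 to 1.59 in WT ns in set 1. In set 2 it was at 871 to 1154 and 1207 to 1352.

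**Figure D1:**
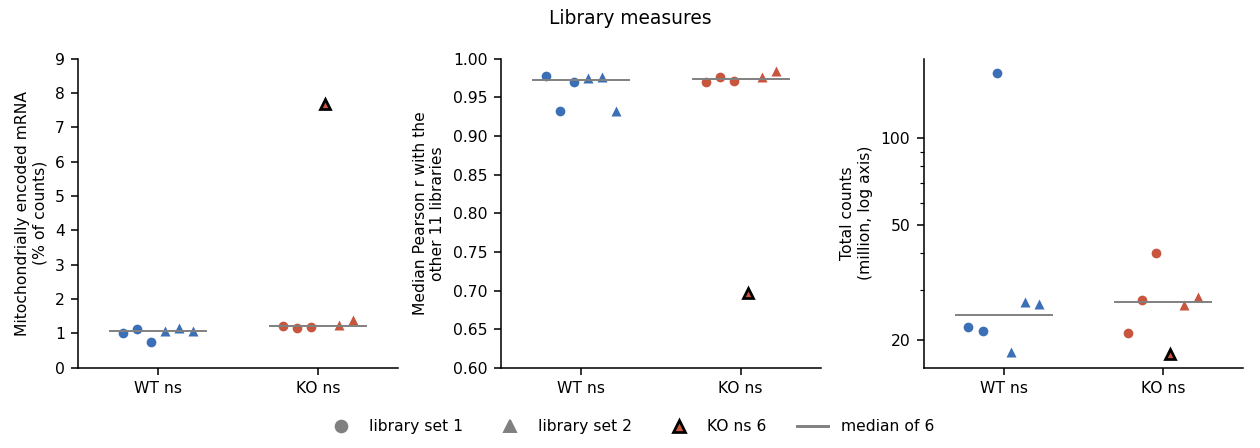
Mitochondrially encoded mRNA (percent of counts), median Pearson correlation with the other 11 libraries (log2 CPM across genes) and total counts (M, log axis) for each of the 12 libraries. KO ns 6 lies at 7.69% and 0.697, apart from the rest, and WT ns 4 at 168.4 M counts.

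Microglial markers were abundant in every library. The 9 microglial markers, among them Tmem119, Csf1r and Cx3cr1, summed to 21584 to 36527 CPM in WT ns and 31799 to 56265 in KO ns, the highest being KO ns 6. Neutrophil markers were present in both groups and varied widely within each, from 312.6 to 17725 CPM in WT ns and from 281.4 to 11239 in KO ns, with all 8 markers detected and medians of 2575 and 894.6. Monocyte markers ranged from 113.9 to 1921 and from 64.8 to 1371 CPM, with medians of 378.4 and 149.8. Markers of B cells (426.6 to 492.0 and 389.4 to 518.5 CPM), border-associated macrophages (2092 to 2972 and 753.4 to 2805) and oligodendrocytes (111.1 to 126.5 and 83.5 to 117.2) overlapped between genotypes. Pericyte markers did not exceed 5.35 CPM in any library. Dendritic cell markers were at 21.6 to 44.4 CPM in WT ns and 19.8 to 65.8 in KO ns, and erythroid markers reached 449.9 and 969.5. Of the markers on these lists 0 were at 0 counts in all 12 libraries, and 0 were called in the fit of 12 libraries (edgeR). In bulk RNA, fewer cells of a type and less RNA per cell cannot be told apart.

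P2ry12 RNA was lower in all KO ns libraries. P2ry12 (chromosome 3, 59123692 to 59170408, minus strand, GRCm39) was at 3615, 4276 and 5370 CPM in WT ns (lowest, median and highest of 6 libraries) and at 618.8, 649.3 and 1377 in KO ns. The groups did not overlap, and KO ns 6 was the highest of the KO libraries, the next being at 693.8. The log2 fold change was -2.56, and -2.79 without KO ns 6. Because the libraries were chosen with this gene in view, its fall is given with no test. Between 15241 and 27351 counts per KO library remained, and counts per gene do not show which exons they cover. Saa3 was at 1.55 to 66.2 CPM in WT ns and 0.842 to 3.17 in KO ns, and the one WT library above 4.23 was WT ns 8, in which the scavenger receptor gene Marco was also high, at 66.3 CPM against at most 1.42 in the other 5.

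P2ry13, the neighbouring ADP receptor, was lower in 5 of the 6 KO ns libraries. It lies at 59115313 to 59118303 on chromosome 3 and was at 1186, 1389 and 1762 CPM in WT ns. In the 5 KO ns libraries it was at 272.4, 367.4 and 500.4, and in KO ns 6 it was at 1676, inside the WT range. With all 12 libraries the log2 fold change was -1.43 ± 0.39 (SE) and was not called (adjusted p = 0.505, edgeR's quasi-likelihood test with Benjamini-Hochberg adjustment). Without KO ns 6 it was -1.93 ± 0.16 (adjusted p = 1.06e-04, edgeR). Calls here and in what follows use an adjusted p under 0.05.

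Of the other neighbours tested 0 were called in either fit (edgeR). P2ry14, a receptor for UDP-sugars, had 1.52, 2.21 and 6.30 CPM in WT ns against 0.526, 0.939 and 8.15 in KO ns, where the highest value was KO ns 6. Gpr171 was at 1.08, 1.46 and 1.80 and at 0.546, 0.746 and 4.03, the last again KO ns 6. Without that library their log2 fold changes were -1.62 ± 0.46 (adjusted p = 0.172) and -0.97 ± 0.22 (adjusted p = 0.0796, edgeR). In library set 2 alone, which holds KO ns 6, P2ry14 and Gpr171 changed sign, to 0.02 and 0.17. Med12l, the mediator subunit gene that encloses all of them, was at 60.6, 77.2 and 90.4 CPM in WT ns and 62.2, 81.9 and 105.4 in KO ns (log2 fold change 0.09 ± 0.14, adjusted p = 0.765).

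**Figure D2:**
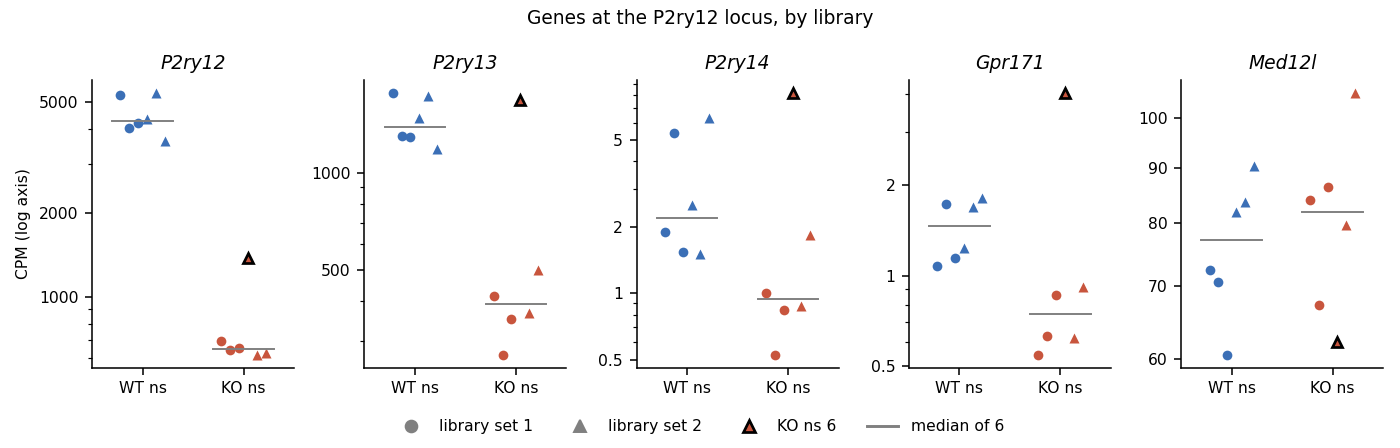
CPM (log axis) of P2ry12, P2ry13, P2ry14, Gpr171 and Med12l in the 12 libraries, 6 WT ns and 6 KO ns, with the median of 6 as a line. For P2ry12 all KO libraries lie below all WT libraries, and for P2ry13 KO ns 6 lies at 1676 while the other 5 KO libraries lie between 272.4 and 500.4.

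Across the transcriptome few genes passed the test with all 12 libraries. Of 15125 genes tested, 10 were called, 5 higher (0.0331% of the genes tested) and 5 lower (0.0331%) in KO ns, and 1212 had an unadjusted p under 0.05 (edgeR). P2ry12, whose values chose the libraries, is one of the 5 lower genes. All 6 KO libraries lay above all 6 WT libraries for 119 genes (0.787%) and below them for 107 (0.707%), and the 10 called genes were among these. The count of calls rested on single libraries: it was 93 without KO ns 6, and 6 without WT ns 3 or without WT ns 8. The largest adjusted p among called genes was 0.0347 and the smallest among the others was 0.0626.

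Rxfp1 and Ccr1l1 were close to absent in the knockout. Rxfp1, the receptor for the hormone relaxin, lies on the same chromosome as P2ry12, 20.4 Mb away (79548910 to 79645258). It was at 3.96, 6.92 and 12.2 CPM in WT ns and at 0, 0.0467 and 0.204 in KO ns, where 11 counts were found in the 6 libraries together against 1699 in WT ns. The groups were far apart, and the log2 fold change was -6.76 ± 0.56 (adjusted p = 9.97e-04, edgeR). Ccr1l1, a gene of the CC chemokine receptor family on chromosome 9 (123776467 to 123786752), was at 94.0, 166.3 and 293.5 CPM in WT ns. In KO ns it was at 1.46, 1.85 and 9.41 CPM, the highest being KO ns 6 and the next 1.96. Its log2 fold change was -5.93 ± 0.59 (adjusted p = 2.56e-03, edgeR). Ccr1l1 resembles its neighbour Ccr1, and how reads shared by such genes were counted is not given in the sources used here.

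The remaining lower genes, Gm2956 and Afm, were of low level. Gm2956, a predicted gene on chromosome 14 (19114974 to 19137685), was at 2.68, 4.77 and 5.87 CPM in WT ns and 0, 0.290 and 0.774 in KO ns. Afm, which encodes the vitamin E-binding plasma protein afamin, lies on chromosome 5 (90666808 to 90701403) and was at 3.18, 5.02 and 5.98 CPM in WT ns. In KO ns Afm was at 0, 0.143 and 0.766 CPM. Their log2 fold changes were -3.74 ± 0.51 (adjusted p = 0.0198) and -4.48 ± 0.66 (adjusted p = 0.0347, edgeR).

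The 5 higher genes differed widely in level. Pgk1, the glycolytic enzyme phosphoglycerate kinase 1, lies on chromosome X (105230706 to 105247305) and was at 27.5, 30.9 and 55.4 CPM in WT ns. In KO ns it was at 132.5, 143.5 and 298.7, the highest being KO ns 6, and the groups did not overlap (log2 fold change 2.12 ± 0.27, adjusted p = 0.0115, edgeR). Pgk1 has near-identical processed copies in the genome, so its count is uncertain to that extent. Of the 20 members of the glycolysis list tested, Pgk1 was the 1 called higher and 0 were called lower, and the median log2 fold change was -0.14, against -0.04 over all genes tested. Gapdh, for example, was at a median of 374.6 CPM (WT ns) and 363.8 CPM (KO ns).

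Rxrg, the gamma form of the retinoid X receptor, a nuclear receptor that pairs with other nuclear receptors, lies on chromosome 1 (167425931 to 167467192). It was at 0.754, 1.30 and 1.58 CPM in WT ns and 3.61, 5.52 and 7.33 in KO ns (log2 fold change 2.17 ± 0.24, adjusted p = 5.31e-03, edgeR). The levels of its relatives overlapped between genotypes: Rxra was at a median of 95.5 CPM (WT ns) and 119.9 CPM (KO ns), and Rxrb at 98.9 and 99.6. Of 11 tested retinoid X receptors and partners, 1 was called, with a median log2 fold change of -0.16.

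Lox, which encodes the collagen cross-linking enzyme lysyl oxidase (chromosome 18, 52649132 to 52662939), was at 0.863, 1.28 and 1.65 CPM in WT ns. In KO ns it was at 2.87, 4.34 and 5.72 (log2 fold change 1.76 ± 0.22, adjusted p = 0.0106, edgeR). Wdr41, a partner of C9orf72 at lysosomes, had the smallest fold change of the 10 and the narrowest spread. It lies on chromosome 13 (95112226 to 95161800) and was at 66.0, 72.8 and 83.1 CPM in WT ns and 116.1, 124.7 and 133.0 in KO ns (log2 fold change 0.77 ± 0.10, adjusted p = 0.0106, edgeR). AC161884.1, a transcript named only by a clone accession, was at 0.129, 0.202 and 0.619 CPM in WT ns and 1.47, 1.92 and 2.86 in KO ns (log2 fold change 2.90 ± 0.33, adjusted p = 5.31e-03, edgeR).

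**Figure D3:**
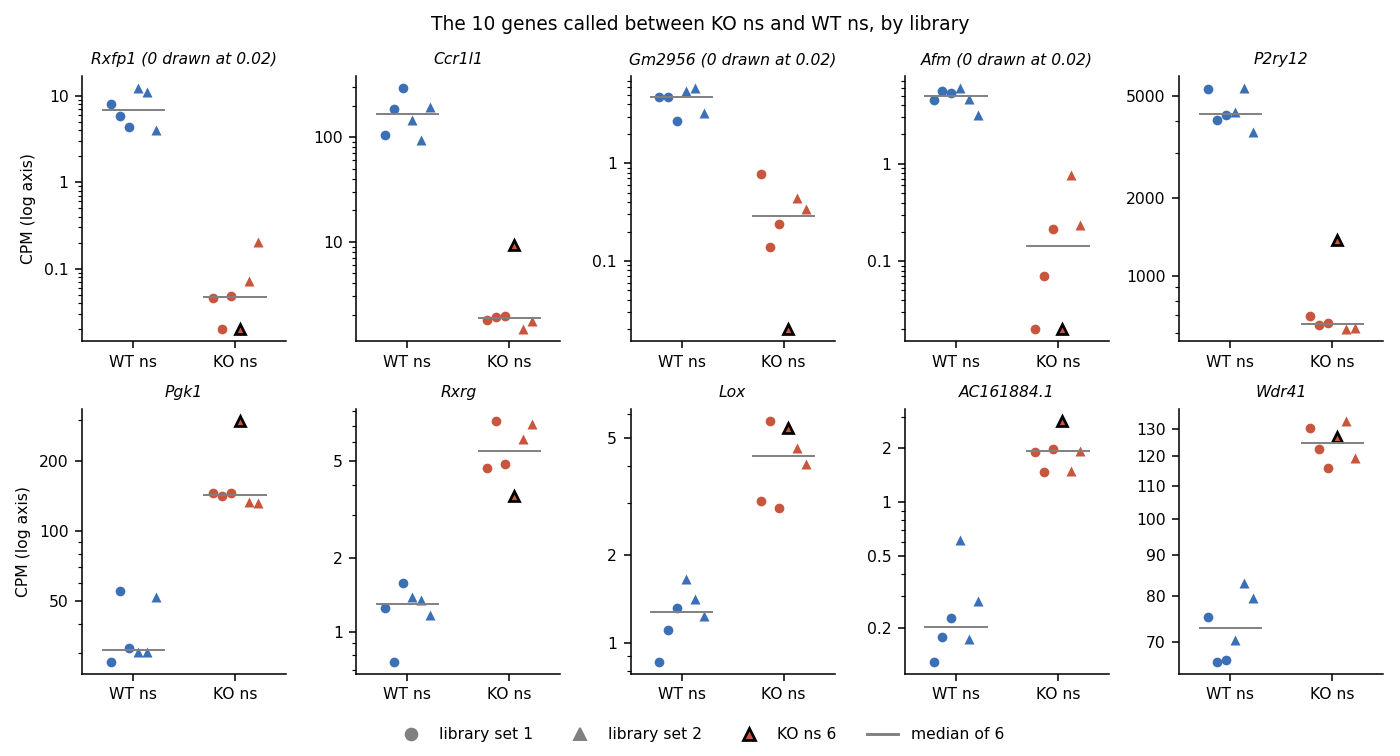
CPM (log axis) of the 10 called genes in each of the 12 libraries, with circles for set 1, triangles for set 2, the median of 6 as a line and values of 0 drawn at 0.02. In every panel all 6 KO ns libraries lie on one side of all 6 WT ns libraries.

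The direction of these 10 genes was the same in both library sets. That follows from all 6 KO libraries lying on one side of all 6 WT libraries, so it is no separate check. In set 1 alone and in set 2 alone the log2 fold changes were -7.44 and -6.32 for Rxfp1, -6.66 and -5.16 for Ccr1l1, 2.23 and 2.11 for Rxrg, 1.94 and 2.32 for Pgk1, and 3.23 and 2.55 for AC161884.1. With 3 libraries against 3, 8 genes were called in set 1, only 4 of them among the 10, and 0 in set 2, where 534 genes had an unadjusted p under 0.05 (edgeR), as against 1001 in set 1. Rxfp1, Wdr41 and AC161884.1 were called in set 1. Ccr1l1 (adjusted p = 0.0612), Afm (0.0589), Rxrg (0.0860), Pgk1, Lox and Gm2956 (each 0.245, edgeR) were not. When each library was left out in turn, Rxfp1, Ccr1l1, Rxrg and AC161884.1 were called in 12 of 12 fits, with adjusted p up to 0.0383. Pgk1 was called in 11, the exception being without WT ns 4 (adjusted p = 0.0621), and Lox in 10, the exceptions being without WT ns 3 and without WT ns 8 (adjusted p up to 0.0539, edgeR). Wdr41, Gm2956 and Afm were called in 4, 3 and 2 of the 12 fits, with adjusted p up to 0.0814, 0.122 and 0.159 (edgeR), so these calls depend on the whole set of libraries. A difference in genotype effect between the sets was tested as an interaction and called 0 genes in edgeR, where 156 had an unadjusted p under 0.05, and 2 in DESeq2. Without KO ns 7 the interaction gave 1 call.

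The libraries numbered 2, which did not enter the fit, gave values on the same side by genotype label for some of these genes and not for others. The 2 labelled WT ns are those whose P2ry12 and Saa3 went against their labels. Neither they nor a fit that holds them therefore repeats the comparison. Ccr1l1 was at 97.0 and 268.8 CPM in the 2 labelled WT ns and at 2.26 and 2.51 in the 2 labelled KO ns. Rxrg was at 2.51 and 1.46 against 4.71 and 5.62, and Pgk1 at 63.4 and 108.0 against 158.3 and 175.5. Rxfp1 was lower in the WT ones than in other WT ns libraries, at 0.671 and 1.64, against 0.0383 and 0.0353 in the KO ones. Lox, at 9.22 and 3.76 against 3.10 and 3.29, was not higher in the KO ones, and Gm2956 was at 0.850 and 0.244 against 0.345 and 0.424. With all 16 libraries as labelled, 9 genes were called, 6 of them among the 10, and Lox (log2 fold change 0.65, adjusted p = 0.670), Gm2956 (adjusted p = 0.0573) and Afm (adjusted p = 0.0573, edgeR) were not. In that fit the fold change of Saa3 was -8.33 on the log2 scale, against -2.08 with 12 libraries.

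Libraries labelled LPS and not numbered 2 gave further values for the same genes (7 WT LPS, of which 2 were nearly alike, and 6 KO LPS), read here without a test. LPS was given into the peritoneum at 1 mg/kg. Rxfp1 was at 0.340 to 0.771 CPM in WT LPS and 0 to 0.0860 in KO LPS. Ccr1l1 was at 278.9 to 544.1 CPM in 6 WT LPS libraries, at 1.25 in the library labelled WT LPS 5, and at 0.367 to 1.12 in KO LPS. Rxrg was at 0.920 to 5.03 and at 4.69 to 15.0, with WT LPS 5 the highest of the WT libraries and above the lowest KO library. The groups were separate for AC161884.1 (0.271 to 1.57 and 1.88 to 3.02) and Gm2956 (0.260 to 0.476 and 0 to 0.122). They overlapped for Pgk1 (54.6 to 239.9 and 62.7 to 93.1), Lox (4.33 to 31.4 and 5.42 to 13.5), Wdr41 (48.0 to 72.6 and 59.2 to 79.9) and Afm (0.0541 to 0.814 and 0 to 0.0799).

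Without KO ns 6 many more genes passed. Of 15371 genes tested in 11 libraries, 93 were called, 58 higher (0.377%) and 35 lower (0.228%) in KO ns, and all 10 genes of the 12-library fit were among them. The spread between libraries, as the biological coefficient of variation, fell from 37.3% to 24.4%. Of the 15125 genes of the 12-library fit, all 5 KO libraries lay above the 6 WT libraries for 200 (1.32%) and below them for 153 (1.01%). Of the 93 genes, 62 lay on the same side of the WT median in KO ns 6 itself. The count was sensitive to further libraries: leaving out one more gave 25 without KO ns 3 or without KO ns 7, 26 without KO ns 2, 35 without KO ns 8, 44 without WT ns 3, 60 without WT ns 2, 61 without KO ns 4 or without WT ns 8, and 193 without WT ns 4. Besides the 10, the genes called in all 11 of these fits were P2ry13, Lrmda, Liph, Dnaaf3, Peli1, 2510009E07Rik, Mrc2, Pecam1, Amotl1 and Lat2, which with 9 of the 10 makes 19. The exception was Afm, called in 9 of 11.

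The largest rises beyond the genes above were mostly of low level. The 15 largest rises and falls are named here by a rule chosen after the values were seen. Plet1os (log2 fold change 2.35 ± 0.39), Ankub1 (2.27 ± 0.42), Grik4 (1.89 ± 0.36), Chn1 (1.56 ± 0.30), Olfr1330 (1.39 ± 0.25), Gm13710 (1.27 ± 0.26) and Nrgn (1.18 ± 0.23) did not exceed 5.99 CPM in any library. Dll1, a ligand of Notch receptors, rose by 1.35 ± 0.21, from 0.778, 1.69 and 2.06 CPM in WT ns to 3.14, 3.98 and 5.54 in the 5 KO libraries. Chst2, a carbohydrate sulfotransferase, rose by 1.05 ± 0.18, and Kalrn, a guanine nucleotide exchange factor, by 1.04 ± 0.18. Mrc2, an endocytic collagen receptor, rose by 1.02 ± 0.14, from 81.6, 103.4 and 144.6 to 196.7, 219.6 and 264.4 CPM. In KO ns 6, Mrc2 was at 44.9 and Dll1 at 1.85, inside or below the WT range.

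Falls were led, after P2ry12, P2ry13 and the 4 genes above, by genes of low level. Lrmda, a melanocyte differentiation gene on chromosome 14, was at 4.70, 6.20 and 6.90 CPM in WT ns and 1.03, 1.12 and 1.73 in 5 KO libraries, with KO ns 6 at 5.29 (log2 fold change -2.33 ± 0.17, adjusted p = 3.99e-05, edgeR). Gpnmb, a glycoprotein raised in phagocytic microglia, was at 0.801, 1.41 and 2.21 and at 0.146, 0.335 and 0.526 (adjusted p = 0.0245, edgeR). Cdkn1a, which encodes the cell cycle inhibitor p21, was at 11.8, 14.0 and 20.1 and at 5.72, 7.82 and 7.85 (-1.08 ± 0.17), and KO ns 6 was lower still at 2.52. Ppp1r16b, Tdo2 and Serpina3g also fell by 1.16, 1.12 and 1.47 on the log2 scale, and Igkv1-110 from a median of 2.47 CPM to 0.442. Igkv1-110 is an immunoglobulin segment of a family with near-identical members, so its count is uncertain.

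Several lower genes are known from T and natural killer (NK) cells, an observation made after their values were seen. Ptprcap (-1.28 ± 0.20), the kinase Txk (-1.18 ± 0.19), the activating receptor Klrk1 (-0.87 ± 0.16) and the protease Ctsw (-0.80 ± 0.14) fell without KO ns 6. Klrk1 was at 9.53, 10.9 and 14.9 CPM in WT ns, at 4.55, 6.82 and 7.58 in 5 KO libraries and at 19.5 in KO ns 6. The 9 markers of T and NK cells summed to 50.2, 69.3 and 95.1 CPM in WT ns, to 19.0, 32.8 and 42.7 in those KO libraries and to 237.1 in KO ns 6. Of these markers 4 were tested with 12 libraries, and Trbc2 was tested as well without KO ns 6. In either fit 0 were called (edgeR). Gzma, at 26.4 to 45.8 CPM in WT ns and 10.7 to 21.9 in the 5 KO libraries, had the highest level and was at 166.2 in KO ns 6, and Cd3e did not exceed 0.206 CPM in any library. Ptprcap and Txk, at 7.73 and 4.45 CPM in KO ns 6, were above all WT libraries there, while Ctsw, at 2.52, was below all other libraries. The part of T and NK cells in the lower genes was not tested.

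Pecam1 and Slc1a3, genes often used as markers of endothelial cells and astrocytes, were called higher without KO ns 6 and not with 12 libraries. Pecam1, an adhesion molecule also made by myeloid cells, was at 41.7, 45.2 and 55.2 CPM in WT ns and 55.3, 66.3 and 71.6 in the 5 KO libraries, with KO ns 6 at 69.9 (log2 fold change 0.50 ± 0.10, adjusted p = 0.163 with 12 libraries, and 0.50 ± 0.07, adjusted p = 7.86e-03 without KO ns 6, edgeR). Slc1a3, a glutamate transporter, was at 116.7, 151.5 and 176.6 CPM in WT ns and 216.7, 259.0 and 346.9 in all 6 KO ns libraries. It was not called with 12 libraries (0.85 ± 0.15, adjusted p = 0.130) and was without KO ns 6 (0.78 ± 0.12, adjusted p = 0.0157, edgeR). The other 7 astrocyte markers together made 3.60 to 8.01 CPM in WT ns, 3.16 to 4.35 in the 5 KO libraries and 10.5 in KO ns 6. The other 5 endothelial markers made 9.34 to 14.6 CPM in WT ns, 13.2 to 16.4 in the 5 KO libraries and 6.47 in KO ns 6. Among them, without KO ns 6, Kdr rose by 0.67 (adjusted p = 0.0758) and Flt1 fell by 0.37 (adjusted p = 0.552, edgeR) on the log2 scale. Neuronal markers were at 2.90 to 6.35 CPM in WT ns and 5.55 to 15.5 in KO ns.

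Among immune regulators, Lag3, an inhibitory receptor, was at 204.9, 293.4 and 421.0 CPM in WT ns and at 483.0, 500.4 and 571.5 in 5 KO libraries, with 239.8 in KO ns 6 (0.76 ± 0.13 without it, adjusted p = 0.0282, edgeR). Peli1, a ubiquitin ligase of Toll-like receptor signalling, was at 101.0, 113.6 and 118.6 CPM and at 143.3, 158.0 and 160.9, with KO ns 6 at 152.5 (0.47 ± 0.06, adjusted p = 3.09e-03, edgeR). Selenop, a selenium carrier, rose from a median of 1976 to 2895 CPM (0.53 ± 0.11). The phospholipase Liph was at 49.3, 64.3 and 74.7 CPM and at 110.1, 111.5 and 115.8 (0.81 ± 0.09), with KO ns 6 at 78.8. The sialic acid receptor Cd22 and the transcription factor Bach2 rose by 0.49 and 0.51, while Cd72, Traf1 and the transmembrane adaptor Lat2 fell by 0.93, 0.99 and 0.39 on the log2 scale without KO ns 6. These genes were chosen after their values were seen.

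**Figure D4:**
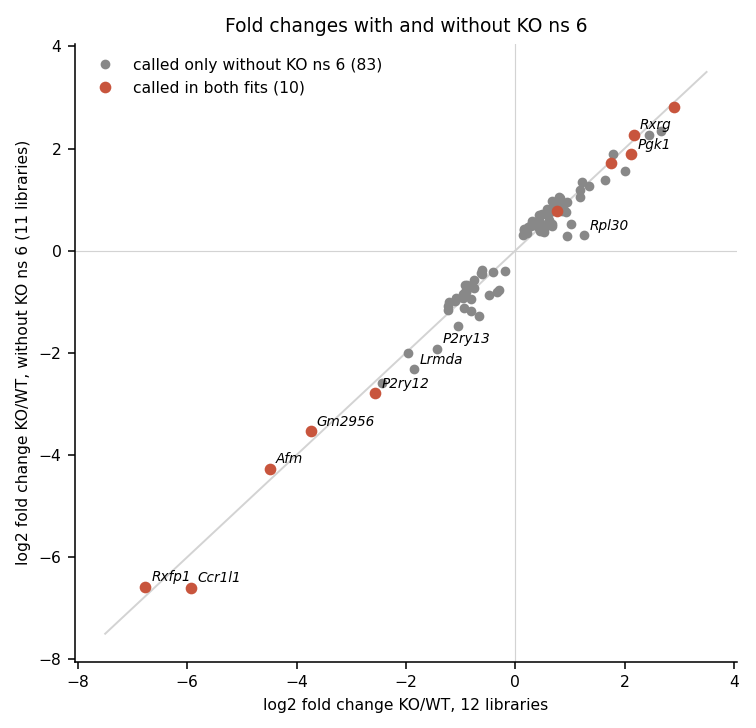
Log2 fold change of the 93 genes called without KO ns 6, in the fit of 12 libraries (x axis) and of 11 libraries (y axis), with the line of equality. The 10 genes called in both fits lie near the line, and Rpl30 moves from 1.25 to 0.30.

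The position of the called genes was compared with that of all tested genes. Of the 13436 tested genes with a GRCm39 position, 4.65% lay on chromosome 3 and 1.47% within 30 Mb of P2ry12. Of the 86 placed genes among the 93, 7 lay on chromosome 3 (8.14%) and 5 within 30 Mb (5.81%). These shares count P2ry12, whose values chose the libraries, and its neighbour P2ry13. Leaving both out, 3 called genes and 195 tested genes lay within 30 Mb, and no test was made. The 5 were P2ry12, P2ry13, Rxfp1, Ankub1 and Tdo2, an enzyme of tryptophan breakdown. Ankub1 was higher, at 0.0353 to 0.258 CPM in WT ns and 0.408 to 0.877 in the 5 KO libraries, and Tdo2 was lower, at 1.09 to 1.62 and 0.474 to 0.952.

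Among genes that mark resting microglia few passed the test. Of 21 tested members of that list, 0 were called in the 12-library fit (edgeR, with 1 higher and 1 lower at an unadjusted p under 0.05), and the median log2 fold change was 0.05. Over all 15125 genes tested, 480 were higher and 732 lower at that unadjusted p (edgeR). Without KO ns 6 only P2ry13 was called, and the median was 0.14. Tmem119 was at a median of 2557 CPM (WT ns) and 2740 CPM (KO ns), and Cx3cr1, the fractalkine receptor, at 3322 and 3233, with 1 WT library at 214.7 and KO ns 6 at 626.9. Siglech, at 1346 and 1598, had groups that did not overlap but was not called (log2 fold change 0.39 ± 0.16, adjusted p = 0.556, edgeR). In the list of disease-associated microglia, Gpnmb was the 1 of 23 members called without KO ns 6, and the median was 0.22 with 12 libraries and 0.05 with 11. Lpl, lipoprotein lipase, had groups that did not overlap, at medians of 39.8 and 23.9 CPM (-0.93 ± 0.19, adjusted p = 0.186, edgeR). Apoe was at 1560 and 1474 and Trem2 at 1071 and 1241.

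The other receptors and enzymes for extracellular nucleotides gave 0 calls among 16 members in both fits, with 0 higher and 3 lower at an unadjusted p under 0.05 (edgeR, 12 libraries). Among all 15125 genes tested, 480 were higher and 732 lower at that unadjusted p (edgeR). The uracil nucleotide receptor P2ry6 was at medians of 268.0 and 288.3 CPM, the channel P2rx7 at 387.8 and 391.8, and Entpd1, the enzyme that breaks down ATP and ADP, at 961.3 and 1073. The adenosine receptor Adora2a was low in both, at 2.28 and 1.04 (-1.02 ± 0.26, adjusted p = 0.406, edgeR). Of 19 tested genes of inhibitory G protein signalling and motility, 0 were called in either fit, with a median of 0.18 with 12 libraries and -0.02 without KO ns 6.

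The mitochondrial, respiratory chain and ribosomal lists had smaller medians when KO ns 6 was left out. Over all genes tested, 6959 of 15125 lay above 0 with 12 libraries, and 7180 of 15371 did without KO ns 6. With 12 libraries 480 of all genes were higher at an unadjusted p under 0.05 (edgeR). For the 8 tested mitochondrially encoded genes the median log2 difference was 1.25 with 12 libraries and 0.30 without KO ns 6, with 8 of 8 above 0 and 0 called in both (edgeR, 3 at an unadjusted p under 0.05 with 12 libraries). All 5 other KO libraries still lay above all WT libraries for 4 of the 8, against 1.32% of all genes. mt-Cytb, a subunit of complex III, was at medians of 2148 CPM (WT ns) and 2603 CPM (KO ns). The cytosolic ribosomal protein genes had a median of 0.88 with 12 libraries and 0.14 without KO ns 6. Without it 77 of 83 lay above 0, and 8 had all 5 KO libraries above all WT libraries, against 1.32% of all genes. Of the 83, 1 was called without KO ns 6, Rpl30, from 102.5, 107.3 and 115.3 CPM in WT ns to 124.9, 137.7 and 138.9 in the 5 KO libraries (0.30 ± 0.06, adjusted p = 0.0491, edgeR). In the other experiment of the series, with male and female animals, 81 of the 83 lay above 0, with a median of 0.28. Of all 13246 genes of the 12-library fit tested there, 6140 lay above 0. The nuclear-encoded respiratory chain genes had a median of 0.58, with 74 of 76 above 0, and of -0.04, with 20 of 76 above 0, once KO ns 6 was left out. Cox7a2l was the 1 called there, at 62.1 and 73.9 CPM (medians, 0.28 ± 0.06, adjusted p = 0.0499, edgeR).

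Inflammatory and proliferation lists held 0 called genes in both fits. Over all genes tested, 6959 of 15125 lay above 0 with 12 libraries, and 7180 of 15371 did without KO ns 6. At an unadjusted p under 0.05, 480 of all genes were higher and 732 lower (edgeR, 12 libraries). In the 12-library fit 0 of 19 acute LPS-inducible genes were called (edgeR, 2 higher and 4 lower at an unadjusted p under 0.05), with a median of 0.24, and 0 of 22 interferon-stimulated genes (3 higher and 0 lower), with -0.11. Without KO ns 6 these medians were 0.00 and -0.13, again with 0 called in both lists. The LPS-inducible list holds Saa3, whose values helped to choose the libraries, so its counts and medians are not independent of that choice. Of 25 immediate early and dissociation genes 1 lay above 0 in both fits, with medians of -0.32 and -0.23 and 0 called (5 lower at an unadjusted p under 0.05 with 12 libraries). Fos was at 10.3, 14.2 and 46.0 CPM in WT ns and 3.11, 8.46 and 15.6 in KO ns. Of 14 cell cycle genes 1 lay above 0 with 12 libraries and 0 without KO ns 6, with medians of -1.01 and -1.24. Of these 0 were called (7 lower at an unadjusted p under 0.05 with 12 libraries, edgeR). In the male and female animals 1 of the 14 cell cycle genes lay above 0, with a median of -0.85. Of the 25 immediate early and dissociation genes 9 lay above 0 there, with a median of -0.02, against 6140 of all 13246 genes. Mki67, a marker of dividing cells, was at 12.4, 25.8 and 173.6 CPM in WT ns and 3.36, 7.51 and 49.4 in KO ns. The libraries with most Mki67 in each group, WT ns 8, WT ns 3 and KO ns 4, had 16513, 17725 and 7432 CPM of neutrophil markers, while KO ns 6, with 11239 CPM of neutrophil markers, the most of the KO libraries, had the least Mki67, at 3.36. The part of those cells in the list was not tested. Of 17 cholesterol genes 0 were called in either fit, with medians of -0.03 and -0.17. The 5 tested sex-linked transcripts gave 0 calls and a median of -0.13 in both fits.

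The second experiment of the series offered the same contrast in other animals, 18 male and female littermates of both genotypes (WT, 4 males and 4 females; KO, 5 males and 5 females), counted separately. There 133 genes (0.419% of 31709) were called higher and 4 (0.0126%) lower in KO as a mean over the sexes. Of the 93 genes called without KO ns 6, 86 were tested there by the same symbol. The same sign was found for 75 of them, a share of 87.2%, against 67.2% of the 13421 genes tested in both. The share was 96.2% for the genes called higher (50 of 52) and 73.5% for those called lower (25 of 34), nearer to that of all genes. Unadjusted p-values under 0.05 in the same direction were found for 38 of the 86 (44.2%, against 11.4% of all genes) and in the opposite direction for 0. The 9 genes called in both were P2ry12, P2ry13, Pgk1, Lox, Lag3, Peli1, Gpr162, Rpl30 and Cox7a2l, each with the same sign. These counts and shares include P2ry12, which is the gene knocked out and whose values chose the libraries. For P2ry13 the log2 fold change was -1.96 ± 0.13, for Pgk1 1.75 ± 0.27, for Lox 1.58 ± 0.26 and for Lag3 0.59 (adjusted p = 2.33e-07, 0.0123, 8.66e-03 and 8.66e-03, edgeR). Rxrg was at 1.27 ± 0.28 there (adjusted p = 0.0623) and Rxfp1 at -1.56 ± 0.47 (adjusted p = 0.276, edgeR).

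The largest falls were not seen at that size in the second experiment. Ccr1l1 was at 5.81 and 4.24 CPM in male and female WT animals and at 4.81 and 3.75 in KO animals, and the log2 fold change was -0.22 ± 0.15 (adjusted p = 0.747, edgeR). Lrmda was at 0.09 ± 0.08, Wdr41 at 0.10 ± 0.09, Afm at 0.27 ± 0.31 and Gm2956 at -0.30 ± 0.23, with adjusted p from 0.802 to 0.927 (edgeR). Rxfp1 was at 6.30 and 3.79 CPM in male and female WT animals and ranged from 0.166 to 2.90 and from 0.434 to 3.23 in KO animals. Med12l fell by 2.68 on the log2 scale in that table, where the summed counts of the 4 receptor genes inside it came to 97.5% to 98.3% of its own count in WT animals. In WT ns libraries the Med12l count was only 1.36% to 2.50% of the P2ry12 count. Lrmda was likewise at means of 61.3 and 73.1 CPM in male and female WT animals, against at most 6.90 in WT ns, so levels are not comparable between the tables. The difference between the experiments was not tested.

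**Figure D5:**
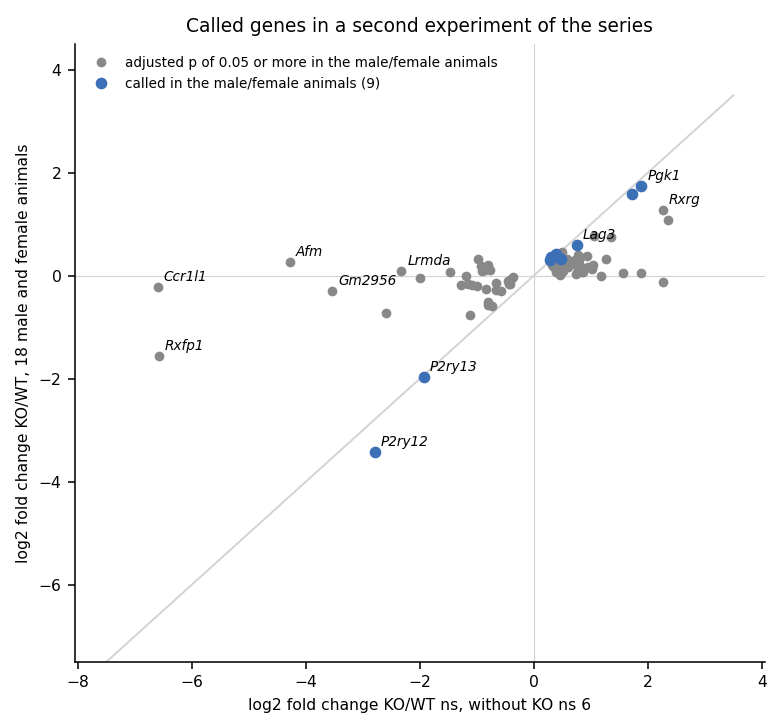
Log2 fold change of 86 genes called without KO ns 6, in the 11 ns libraries (x axis) and in the 18 male and female animals as a mean over the sexes (y axis), with the line of equality. P2ry12, P2ry13 and Pgk1 lie near the line, while Ccr1l1, Afm, Gm2956 and Lrmda lie near 0 on the y axis.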

How the data were processed

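RNA from CD11b-positive mouse brain cells was sequenced, and each of the 2 experiments has its own table of counts, which the authors deposited as whole reads per gene without normalization. Per the submitters' processing notes, FastQC, STAR 2.6.1, featureCounts, Subread and DESeq2 were used with the build GRCm39; parameters, strand setting and annotation version are not given in the sources used here. Columns were matched to samples by library name (0 unmatched), and groups and library sets were taken from the labels and names. The libraries, gene lists and alternatives were chosen with earlier results of these data known.

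Genes were filtered with filterByExpr, scaled by TMM and tested with edgeR 4.0.16 (quasi-likelihood, robust) in R 4.3.3, with library set and genotype as terms, with Benjamini-Hochberg adjustment over all genes tested. Of 53278 genes, 15125 were tested with 12 libraries. Within groups, the chi-square of counts per degree of freedom was at least 8.32 in all 30 pairs of libraries, so 0 pairs were within sampling noise. Depth of 18.0 to 168.4 M counts limits precision for genes of few counts. The named genes are all called genes, those of the P2ry12 locus, up to 4 members per list, a few genes named in advance (Saa3, Marco, Slc1a3) and the 15 largest rises and falls called without KO ns 6; familiar list members (Tmem119, Cx3cr1, Apoe, Trem2, Gapdh and the like) and some genes called without KO ns 6 were added after their values were seen. Positions (GRCm39) come from the second experiment's table by symbol. Alternatives were DESeq2 1.42.0, limma 3.58.1, other scaling, filters, covariates and sets of libraries. The code was tested on simulated data. Some genes of the lists are not reported here.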

Additional observations from a re-analysis of the deposited data

Results flagged for a closer look

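Some libraries lay far from the others of their group, by a gap to the next library that took most of the group's range. Chance would give such a gap in about 1 in 20 groups of normally distributed values. The values were not put on a log scale, so the rate by chance is not known here. Such a gap was found in 14 of 38 checks of a gene or library measure in a group. Of these 8 were KO ns 6. That library had 1377 CPM of P2ry12 (next 693.8), 1676 of P2ry13 (next 500.4), 298.7 of Pgk1 (next 146.6), 9.41 of Ccr1l1 (next 1.96), 8.15 of P2ry14, 4.03 of Gpr171 and 2.86 of AC161884.1, and 7.69% of mitochondrially encoded mRNA. WT ns 8 had 66.2 CPM of Saa3 and 66.3 of Marco, against at most 4.23 and 1.42 in the other WT ns libraries. WT ns 4 had 168.4 M counts. At low levels, Afm was at 0.766 CPM in KO ns 7, Rxfp1 at 0.204 in KO ns 8 and AC161884.1 at 0.619 in WT ns 6.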

How the results depend on the processing

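With 12 libraries the 10 calls became 113 with DESeq2, 396 with library weights in limma (chosen after seeing the data), and 4 with a mean of at least 5 CPM. They became 0 in library set 2 alone (534 genes at an unadjusted p under 0.05, edgeR) and 6 to 93 with each library left out. With Xist as a covariate 0 genes were called (693 at an unadjusted p under 0.05, edgeR). Xist differed between the sets and was lower in all KO libraries within each set, so this covariate overlaps with genotype as well as set. Without KO ns 6, all alternatives being chosen after seeing the data, the 93 calls became 447 with DESeq2, 55 with a mean of at least 5 CPM, 31 with a size limit of 1 on the log2 scale added, 9 with all 15 other libraries labelled ns, and 25 to 193 with 1 more library left out. The interaction of set and genotype gave 0 calls, 2 with DESeq2, and 0 to 1 with each library left out. In the second experiment the 137 calls became 358 with DESeq2, 218 with a mean of at least 5 CPM, and 54 to 279 with each animal left out. In library set 2 alone the log2 fold changes of P2ry14 (0.025), Gpr171 (0.17) and Med12l (-0.055) reversed, and none of these was called. RLE scaling kept 10 of 10 calls.

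A replicate block of set and library number gave 4 calls with 12 libraries, 35 without KO ns 6, 0 for the interaction and 84 in the second experiment. Whether the numbers pair the libraries could not be decided from their correlations. Deviations of same-numbered WT and KO libraries correlated above 0.1 in 1 of 6 pairs (mean r 0.0085, from -0.317 to 0.627). The mean of 12 other pairs was 0.0027. The deviations were taken from means of 3 libraries per set and genotype, which by itself holds such averages near 0.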
